A study of Mus musculus with 10 samples.

Results

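The genes described here encode the collagens, nidogens and perlecan of the basement membrane, and they were chosen by name. They are 10 of the 39179 genes listed for each sample, namely Col4a1, Col4a2, Col4a3, Col4a4 and Col4a5 (chains of collagen IV), Col15a1 and Col18a1 (collagens XV and XVIII), Nid1 and Nid2 (nidogens) and Hspg2 (perlecan). RNA was sequenced from the tibialis anterior, a fast muscle of the lower leg, of 4 Control mice and 6 LLC mice. LLC mice had received Lewis Lung Carcinoma cells, a mouse lung cancer line, under the skin of both flanks, and Control mice phosphate-buffered saline (PBS) at the same sites. The sample labels give C57BL/6J mice aged 10 weeks and tumors of 23 days, whereas the series design gives C57BL/10 males aged 8 weeks and 22 days after inoculation. No group carried a transgene or a deletion, and the sequenced LLC mice were among those that survived to the end of the experiment, when the tumor-bearing animals were cachectic. Of the 10 genes 9 had enough reads to be tested in the main fit, and Col4a4 did not.

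A basement membrane is the thin sheet of matrix that wraps each myofiber, each capillary and each nerve sheath. Its scaffold is a network of collagen IV, which forms from trimers of chains, beside a second network of laminins. Nidogens bind laminin and collagen IV and link both networks, and perlecan, a large proteoglycan with heparan sulfate chains, binds them and holds growth factors. Collagens XV and XVIII lie at the outer face of the sheet, anchor it to the fibrillar matrix, and release fragments known to act on blood vessels, of which endostatin from collagen XVIII is the best known. In muscle this sheet gives the fiber its mechanical support and forms the outer wall of the satellite cell niche. The values below are transcript levels, and say nothing of the amount of protein, which turns over slowly in this matrix.

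All 9 tested genes had lower levels in LLC than in Control, and 6 fell past the threshold. These were Nid2, Col4a3, Nid1, Col15a1, Col18a1 and Hspg2, with LLC levels from 29.9% of Control for Nid2 to 65.9% for Hspg2. The other 3 were Col4a5 at 47.9%, Col4a1 at 70.1% and Col4a2 at 74.9% of Control. The threshold was an adjusted p of 0.05 or less in edgeR's quasi-likelihood test (Benjamini-Hochberg over 12690 genes) with a difference of at least 1.5-fold. By the same rule 3.99% of all tested genes were lower in LLC, and 1.65% were higher, a direction in which no member passed. The DESeq2 Wald test put 7 of the 9 past the same threshold, adding Col4a5. In the fits that each left out 1 mouse the count was 2 to 6, with 2 genes past the threshold without Control 3 or Control 4, 3 without LLC 6 and 5 without LLC 1. The median log2 fold change over the 9 genes was -0.87, beside 0.00 over all tested genes. In bulk muscle, fewer cells of a type and less RNA per cell cannot be told apart.

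Total counts per sample ran from 16693209 to 21303084, and 3 counts, the smallest level taken as detected, were worth 0.141 to 0.180 CPM (counts scaled to a common library total). Fast myofiber markers, of the tissue named in the labels, summed to at least 98180 CPM over 11 genes in every library. One library stood apart, LLC 1, whose counts differed from those of the other LLC samples by a chi-square of 111 to 181 per degree of freedom, against 7.92 to 56.4 among the other 5 LLC samples and at most 8.11 between Control samples. Mitochondrially encoded genes took 28.4% to 30.7% of counts in Control and 22.0% to 27.9% in LLC, lowest in LLC 1 and LLC 5, and with these genes left out 6 of the basement membrane genes passed as before.

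Collagen IV genes lie in the genome as head-to-head pairs, transcribed away from a common start. On the mm10 build (GRCm38, annotation GENCODE M21) Col4a1 (ENSMUSG00000031502, chromosome 8, 11198423 to 11312826, minus strand) and Col4a2 (ENSMUSG00000031503, chromosome 8, 11312805 to 11449287, plus strand) begin so close that their first exons overlap by 22 bases. Col4a3 (ENSMUSG00000079465, chromosome 1, 82586921 to 82722059, plus strand) and Col4a4 (ENSMUSG00000067158, chromosome 1, 82448423 to 82586849, minus strand) start 71 bases apart. Between the starts of Col4a5 (ENSMUSG00000031274, chromosome X, 141475385 to 141689234, plus strand) and its partner Col4a6 lie 1308 bases. RefSeq promoter windows of 300 bases around the start (GRCm38.p6) were matched for 8 of the 10 genes, and the members without one here are Col4a3 and Nid2. The windows of the first pair are shown because the levels of both genes are compared mouse by mouse below. Capitals mark the 78 bases that both windows contain, read in opposite directions.
Col4a1 promoter window, chr8:11312777-11313076, minus strand: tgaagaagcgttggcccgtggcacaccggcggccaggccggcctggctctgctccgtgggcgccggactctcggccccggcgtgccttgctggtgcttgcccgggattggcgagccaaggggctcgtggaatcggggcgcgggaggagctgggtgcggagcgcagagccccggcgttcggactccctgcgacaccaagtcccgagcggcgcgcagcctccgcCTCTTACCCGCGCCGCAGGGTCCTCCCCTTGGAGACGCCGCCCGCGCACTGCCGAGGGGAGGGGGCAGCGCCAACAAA
Col4a2 promoter window, chr8:11312555-11312854, plus strand: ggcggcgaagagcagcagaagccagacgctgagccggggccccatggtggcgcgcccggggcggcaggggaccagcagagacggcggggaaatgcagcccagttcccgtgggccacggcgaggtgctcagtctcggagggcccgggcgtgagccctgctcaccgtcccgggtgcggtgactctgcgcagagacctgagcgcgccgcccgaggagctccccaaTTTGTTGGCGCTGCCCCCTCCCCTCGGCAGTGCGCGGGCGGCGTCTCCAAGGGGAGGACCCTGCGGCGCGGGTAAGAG
The window of Col4a4 is shown for the second pair, with the 71 bases between the starts of Col4a4 and Col4a3 in capitals.
Col4a4 promoter window, chr1:82586800-82587099, minus strand: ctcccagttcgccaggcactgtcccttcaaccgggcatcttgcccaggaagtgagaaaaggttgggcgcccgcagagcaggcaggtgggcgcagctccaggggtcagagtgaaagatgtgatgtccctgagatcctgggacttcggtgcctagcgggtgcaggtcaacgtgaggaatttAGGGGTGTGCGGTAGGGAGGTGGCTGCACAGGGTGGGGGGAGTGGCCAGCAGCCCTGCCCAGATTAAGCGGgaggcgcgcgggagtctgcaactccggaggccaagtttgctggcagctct
The window of Hspg2 is shown for its repeated GC boxes, the hexamer GGGCGG bound by Sp1-type factors, which are in capitals.
Hspg2 promoter window, chr4:137468553-137468852, plus strand: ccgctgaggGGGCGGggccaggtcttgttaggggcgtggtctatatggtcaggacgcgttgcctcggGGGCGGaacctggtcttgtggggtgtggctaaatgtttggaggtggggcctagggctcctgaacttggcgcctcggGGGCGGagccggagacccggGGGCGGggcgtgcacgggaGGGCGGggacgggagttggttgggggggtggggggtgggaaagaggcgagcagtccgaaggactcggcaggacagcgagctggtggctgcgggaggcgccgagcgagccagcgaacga

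These windows were searched on both strands for 4 motifs, and matches of different motifs may overlap. GGGCGG was found 5 times in the Hspg2 window and at least once in those of 6 of the 8 genes (1 site being common to Col4a1 and Col4a2), beside 35.7% of 32851 promoter windows of the same length. CCCTCCCC, letters known from the shared collagen IV promoter, was found for 4 of the 8 genes, Col4a1 and Col4a2 among them through the same site in their shared stretch, beside 10.8% of all windows. CCAAT was found for 5 of 8 genes, beside 37.4% of windows. TATAAA was found for none, beside 13.6% of windows. A match is a description of the letters and is no evidence of binding.

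The collagen chains and the linkers also differ in their 3′ ends. The miR-29 family is known for targeting collagen transcripts, and its mature forms, from RefSeq, share the seed (bases 2 to 8, in capitals).
mmu-miR-29a-3p: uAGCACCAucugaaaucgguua
mmu-miR-29b-3p: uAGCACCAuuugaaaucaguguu
mmu-miR-29c-3p: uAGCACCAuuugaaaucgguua
The matching letters TGGTGCT were searched in the longest annotated coding transcript's 3′ untranslated region, found for 9 of the 10 genes (Col18a1 had none here). They occurred in 6 of the 9, all of them collagens, with 1 match in Col4a1 and in Col15a1, 2 in Col4a2 and in Col4a4, 3 in Col4a5 and 4 in Col4a3. None was found in Nid1, Nid2 or Hspg2. Of 20948 genes with such a region 13.0% held a match, and 16.8% of the 12220 whose region was as long as those of the 9 genes (591 to 4708 bases). A site is shown for each gene of the first collagen IV pair and for Col15a1, the match in capitals.
Col4a1 site, chr8:11199751-11199779, minus strand: ccgtcacaacaTGGTGCTactcccccccc
Col4a2 site, chr8:11448348-11448376, plus strand: gaaggccacgtTGGTGCTtatccttctgt
Col15a1 site, chr4:47312489-47312517, plus strand: aatccacatatTGGTGCTagattctgcag
In level relative to Control, the genes with no match stood at 29.9% (Nid2), 49.8% (Nid1) and 65.9% (Hspg2), and the tested genes with a match at 42.2% (Col4a3) to 74.9% (Col4a2), so these ranges overlapped. Small RNA was not analysed here, so nothing follows from these letters about the microRNAs.

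In levels per kilobase of exon, which allow genes to be compared with each other, the 10 transcripts spanned a wide range (plot of levels per mouse). In Control, Col4a1 was highest at 21.4 ± 4.27 CPM per kilobase (SD, n = 4) and Col4a2 followed at 19.8 ± 3.16. Hspg2 stood at 12.8 ± 1.00 CPM per kilobase, and the ranges of Col4a1 and Col4a2 overlapped each other and lay above it. Nid1 (5.11 ± 0.63) and Col15a1 (4.12 ± 0.59) came next with overlapping ranges. They were followed by Nid2 (1.10 ± 0.18) and Col18a1 (0.840 ± 0.188), whose ranges also overlapped. The minor chains came last, Col4a3 at 0.255 ± 0.053, Col4a5 at 0.137 ± 0.033 and Col4a4 at 0.0719 ± 0.0174 CPM per kilobase, each with a range above the next. In LLC the order was the same but for 1 exchange, with Col18a1 (0.515 ± 0.060, n = 6) above Nid2 (0.329 ± 0.087) and no overlap between them. The ranges of the 3 minor chains overlapped their neighbours in LLC.

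**Figure D1:**
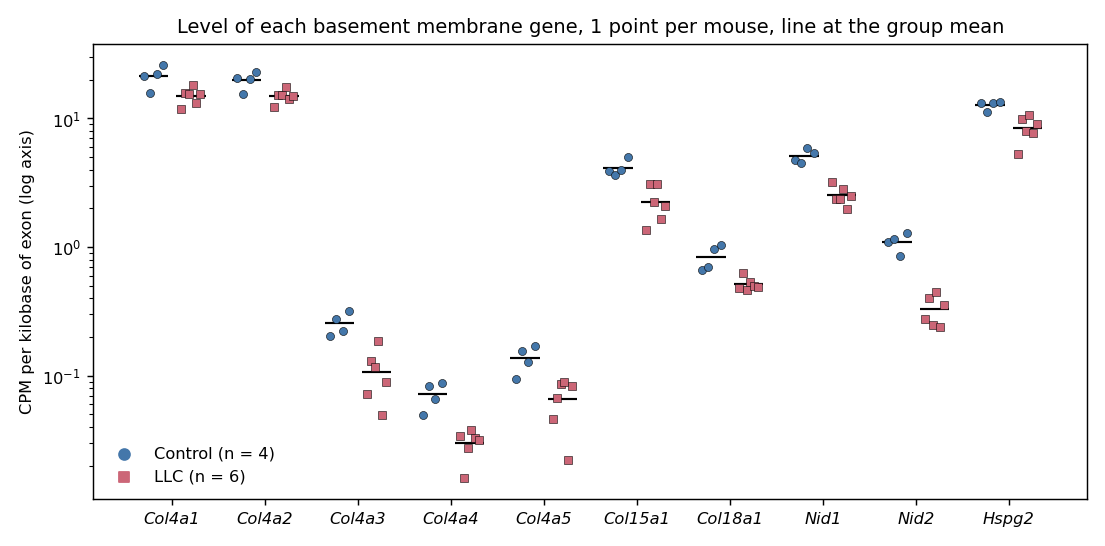
Level of each of the 10 genes in CPM per kilobase of exon (log axis), with 1 point per mouse for 4 Control (blue circles) and 6 LLC samples (red squares) and a line at each group mean. Col4a1 and Col4a2 lie highest at about 20 in Control, Col4a4 lowest at 0.0719, and the groups do not overlap for 8 of the 10 genes. Among the 9 tested genes all LLC samples lie below Control for 7, beside 9.57% of all tested genes.

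Collagen IV transcripts of this muscle were almost wholly those of the major chains. Col4a1, the alpha1 chain, and Col4a2, the alpha2 chain, which join in trimers, together took 98.3% to 99.2% of collagen IV transcripts per length in Control and 99.1% to 99.6% in LLC. Col4a3, Col4a4, Col4a5 and Col4a6 shared the remaining 0.848% to 1.68% in Control and 0.426% to 0.895% in LLC. The low end of Control and the high end of LLC overlapped, in Control 1 and LLC 4. Col4a6 had at most 3 counts in any sample.

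Col4a1 was measured at 161, 118, 165 and 196 CPM in Control 1 to 4, and at 88.6 to 135 CPM in LLC, with a median of 115. Control 2 was the low Control sample, and 2 LLC samples, LLC 2 at 119 and LLC 4 at 135 CPM, lay above it, so the groups overlapped. The log2 fold change of Col4a1 was -0.51 ± 0.15 (SE), less than 1.5-fold, and it did not pass in edgeR's quasi-likelihood test (Benjamini-Hochberg adjusted p = 0.0585). In the DESeq2 Wald test the adjusted p was 0.0214, and the change was again less than 1.5-fold. Col4a1 passed in the fit without Control 2 (edgeR, adjusted p = 0.0301, log2 fold change -0.63).

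Col4a2 had 136, 102, 135 and 152 CPM in Control and 80.7 to 115 CPM in LLC, with a median of 99.3. Here too Control 2 was lowest among Control samples and LLC 4 highest among LLC samples, and the groups overlapped. With a log2 fold change of -0.42 ± 0.12 (SE), less than 1.5-fold, Col4a2 stayed short of the threshold (edgeR, adjusted p = 0.0668). In the DESeq2 Wald test its adjusted p was 0.0275, and the change was again less than 1.5-fold. The overlapping first exons are antisense to each other and short, 22 of 7464 exonic bases of Col4a1.

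The minor chains are known from the kidney, the eye and the synaptic part of the myofiber's sheath, and their counts here were small. Col4a3, the alpha3 chain, had 2.01, 2.77, 2.22 and 3.18 CPM in Control (38 to 58 counts) and 0.496 to 1.86 CPM in LLC (10 to 37 counts), with a median of 1.03. Every LLC sample lay below every Control sample, LLC 4 narrowly and LLC 5 by the most. Col4a3 fell by 1.24 ± 0.29 (SE) on the log2 scale (edgeR, adjusted p = 0.0284). The call was lost without any single Control sample (edgeR, adjusted p of 0.0510, 0.0817, 0.0617 and 0.100 without Control 1, 2, 3 and 4) and without LLC 6 (0.0673). Exons of Col4a3 overlap 563 bases of the antisense RNA C430014B12Rik, which had at most 3 counts in any sample.

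Col4a4, the alpha4 chain encoded beside it, had 10, 18, 13 and 17 counts in Control and 3 to 8 counts in LLC, too few to be tested in the main fit. Scaled, this came to 0.763 ± 0.185 CPM over the 4 Control mice and 0.317 ± 0.081 CPM over the 6 LLC mice (SD), and the groups did not overlap. The lowest LLC sample, LLC 2 with 3 counts, lay at the limit of detection. Col4a4 was tested, and lower past the threshold, with no filter on low counts and in the fit without Control 1. Col4a5, the X-linked alpha5 chain, had 0.636, 1.04, 0.865 and 1.15 CPM in Control and 0.149 to 0.605 CPM in LLC, with a median of 0.505. Its lowest LLC sample, LLC 5 with 3 counts, also lay at the limit of detection. The groups did not overlap, although LLC 4 and Control 1 each had 12 counts before scaling. Its log2 fold change was -1.06 ± 0.32 (SE), which did not pass in edgeR's test (adjusted p = 0.0720) and passed in the DESeq2 Wald test (adjusted p = 0.0419).

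Col15a1 encodes the collagen that bridges the sheet and the surrounding fibrils, and mice that lack it are known for a mild muscle disease. Its levels (ENSMUSG00000028339, chromosome 4, 47208161 to 47313167, plus strand) were 24.7, 23.1, 25.2 and 31.6 CPM in Control and 8.64 to 19.6 CPM in LLC, with a median of 13.7. No LLC sample reached the Control range. LLC 2 and LLC 4 came closest and LLC 1 and LLC 5 lay lowest. Col15a1 fell by 0.87 ± 0.21 (SE) on the log2 scale (edgeR, adjusted p = 0.0316). The call was lost without any single Control sample (edgeR, adjusted p of 0.0767, 0.0608, 0.0802 and 0.110 without Control 1, 2, 3 and 4) and without LLC 3, LLC 5 or LLC 6 (0.0525, 0.0687 and 0.0738).

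Col18a1 (ENSMUSG00000001435, chromosome 10, 77052178 to 77166548, minus strand), the source of endostatin, had 4.66, 4.89, 6.76 and 7.29 CPM in Control. In LLC it had 3.24 to 4.40 CPM, with a median of 3.46. The LLC samples lay close together, with a coefficient of variation of 11.6% against 22.4% in Control, and all were below Control. Col18a1 fell by 0.70 ± 0.15 (SE) on the log2 scale (edgeR, adjusted p = 0.0194). The call was lost without Control 3 (edgeR, adjusted p = 0.0744) and without Control 4 (0.0750).

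Both nidogens fell past the threshold, Nid2 by the most of the 9 tested genes. Nid1 (ENSMUSG00000005397, chromosome 13, 13437551 to 13512269, plus strand), nidogen-1, had 32.8, 31.1, 40.8 and 37.1 CPM in Control and 13.8 to 22.3 CPM in LLC, with a median of 16.9. All LLC samples lay below Control, and LLC 1 was here the highest of the 6. Nid1 fell by 1.01 ± 0.13 (SE) on the log2 scale (edgeR, adjusted p = 0.00103). It passed in all 10 fits that left out 1 sample, with log2 fold changes of -1.08 to -0.93.

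Nid2 (ENSMUSG00000021806, chromosome 14, 19751265 to 19811787, plus strand), the related protein that can stand in for nidogen-1 in many basement membranes, had 5.67, 6.02, 4.43 and 6.68 CPM in Control. In LLC it had 1.24 to 2.32 CPM, with a median of 1.64. The highest LLC sample, LLC 4, lay far below the lowest Control sample. Nid2 fell by 1.74 ± 0.19 (SE) on the log2 scale (edgeR, adjusted p = 0.000414), and it passed in all 10 fits without 1 sample, with log2 fold changes of -1.85 to -1.66. Its exons overlap 437 bases of the antisense gene Rtraf, which was more abundant, at 80.5 CPM in Control and 94.1 CPM in LLC, and did not pass (log2 fold change 0.23, edgeR, adjusted p = 0.204). The study's methods name the default settings of HTSeq, which assign reads by strand, but for RefSeq genes rather than the Ensembl genes listed here, so it is not known how reads of this stretch were treated. The exons of Nid1 overlap 143 bases of an antisense RNA, Gm48682, which was not analysed here.

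Hspg2 (ENSMUSG00000028763, chromosome 4, 137468769 to 137570630, plus strand), the perlecan core protein, had 188, 161, 189 and 192 CPM in Control and 76.0 to 152 CPM in LLC, with a median of 121. All LLC samples lay below Control, LLC 4 only just below Control 2, and LLC 1 was the lowest. Hspg2 fell by 0.60 ± 0.16 (SE) on the log2 scale (edgeR, adjusted p = 0.0471), close to both limits of the threshold. The call was lost in 8 of the 10 fits without 1 sample, those without any single Control sample (edgeR, adjusted p of 0.127, 0.0773, 0.134 and 0.131 without Control 1, 2, 3 and 4), without LLC 3, LLC 5 or LLC 6 (0.0751, 0.0967 and 0.0833) and without LLC 1, where the log2 fold change of -0.49 was under 1.5-fold (adjusted p = 0.00875).

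**Figure D2:**
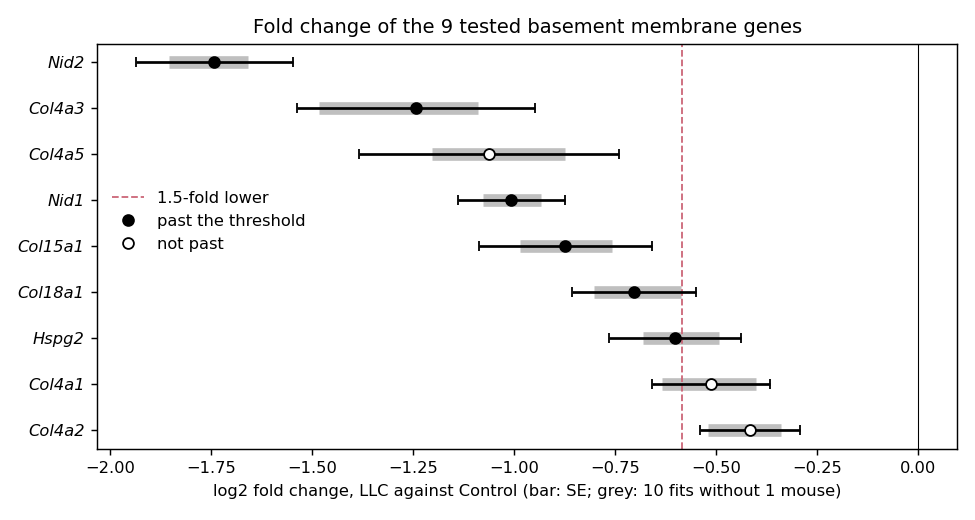
Log2 fold change of LLC against Control for the 9 tested genes (points, with SE as bars), filled where past the threshold, over the range of 10 fits that each left out 1 mouse (grey). Nid2 lies lowest at -1.74 and Col4a2 nearest to 0 at -0.42, and the grey range of Hspg2 crosses the 1.5-fold line.

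Counted over the genes, all 6 LLC samples lay below all 4 Control samples for 7 of the 9 tested genes, a pattern shown by 9.57% of all tested genes. The exceptions were Col4a1 and Col4a2. LLC mice differed among themselves in the same way for most of the genes. LLC 4 had the highest LLC level in 8 of the 10 genes, while LLC 1 and LLC 5 each had the lowest level in 4. As the mean of log2 CPM minus the Control mean over the 9 tested genes, LLC 4 stood at -0.52, LLC 2 at -0.68, LLC 6 at -0.85, LLC 3 at -0.89, LLC 1 at -1.18 and LLC 5 at -1.27. Nid1 broke this order, since LLC 1 was its highest LLC sample but the lowest for Col4a1, Col4a2, Col15a1 and Hspg2. Col18a1 departed from it too, with LLC 2 highest and LLC 3 lowest. Spread within LLC was widest for Col4a3 and Col4a5, with coefficients of variation of 45.2% and 40.8%, both genes with few counts, and narrowest for Col4a2 and Col18a1, at 11.5% and 11.6%.

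**Figure D3:**
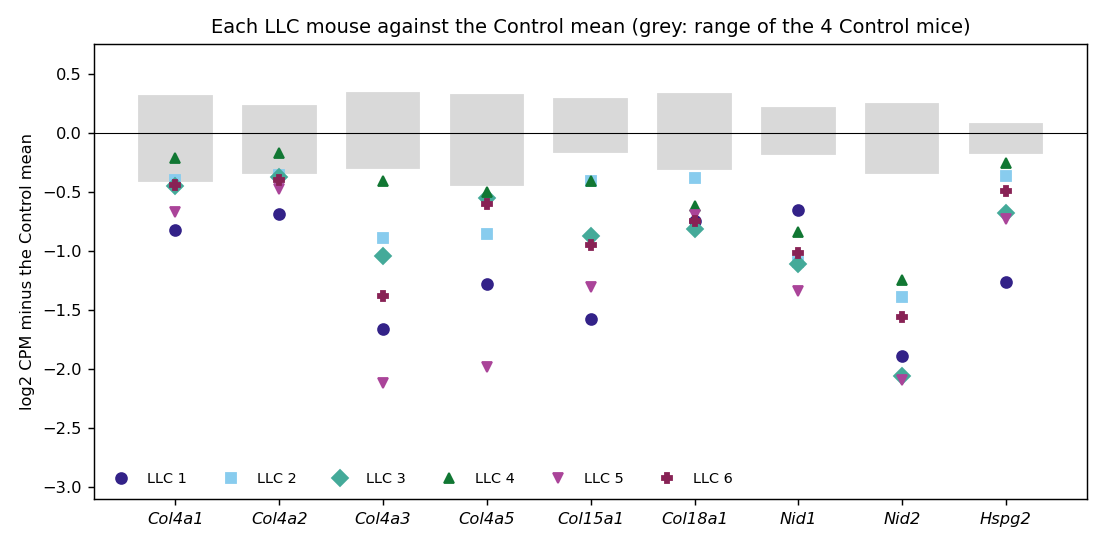
Log2 CPM of each LLC mouse minus the Control mean for the 9 tested genes (1 symbol per mouse), over the range of the 4 Control mice (grey). LLC 4 (triangles pointing up) lies nearest to Control for most genes, and LLC 1 (dark circles) is lowest for Col4a1, Col4a2, Col15a1 and Hspg2 but highest for Nid1.

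Ratios between genes within a mouse do not depend on library scaling, and 6 were compared (exact permutation test, two-sided, over the 210 ways to assign the 10 samples to the groups, smallest possible p 0.00952, Benjamini-Hochberg adjusted over the 6). The ratio of Col4a1 to Col4a2 per kilobase, from the shared start shown above, was 1.05, 1.02, 1.08 and 1.14 in Control and 0.939 to 1.04 in LLC, with a median of 1.03. Both chains were thus near equal in level per kilobase in all 10 mice, and the difference of -0.09 on the log2 scale did not pass (exact permutation p = 0.0667, adjusted 0.1). Nid1 exceeded Nid2 by 4.30, 3.84, 6.82 and 4.12 times in Control and by 5.79 to 11.4 times in LLC, with a median of 7.51. Control 3 lay within the LLC range, and the difference of 0.74 on the log2 scale did not pass after adjustment (exact permutation p = 0.0286, adjusted 0.0571).

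Neither of the next ratios passed. Col15a1 to Col18a1 spanned 4.11 to 5.84 among Control mice and 2.80 to 5.77 among LLC mice, a log2 difference of -0.24 (exact permutation p = 0.305, adjusted 0.305). Hspg2 to Col4a1 spanned 0.513 to 0.712 among Control mice and 0.447 to 0.622 among LLC mice, a log2 difference of -0.13 (exact permutation p = 0.267, adjusted 0.305). In both, the LLC and Control ranges overlapped broadly.

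Set against Col1a1, a fibrillar collagen, Col4a1 was relatively higher in LLC. The ratio of Col4a1 to Col1a1, the main chain of collagen I, was 3.69, 2.45, 2.79 and 3.39 in Control and 13.3 to 33.3 in LLC, with a median of 19.6. All 6 LLC samples lay above all Control samples, with LLC 1 the highest, and the log2 difference was 2.70 (exact permutation p = 0.00952, adjusted 0.0286). Set against Pecam1, an adhesion protein of endothelial cells, Col4a1 was relatively lower, at 1.96, 1.70, 1.91 and 2.28 in Control and 0.793 to 1.40 in LLC, with a median of 1.19. All 6 LLC samples lay below Control, with LLC 1 the lowest, and the log2 difference was -0.81 (exact permutation p = 0.00952, adjusted 0.0286). Col1a1 itself fell by 3.08 ± 0.29 (SE) on the log2 scale (edgeR, adjusted p = 0.000184), and Pecam1 did not pass, with a log2 fold change of 0.31 ± 0.11 (SE, edgeR, adjusted p = 0.0972). Col1a1 is 1 of 11 fibrillar collagens listed, and ratios to the others were not computed. Of the 9 tested 7 fell past the threshold, with a median of -1.80. Col24a1 at -0.48 and Col11a2 at -0.18 fell by less than Col4a1 at -0.51. Pecam1 is 1 of 12 endothelial markers read here, and ratios to the others were not computed. Of the 12 markers 6 had negative log2 fold changes. Kdr at -1.13 fell by more than Col4a1 at -0.51, and Cdh5 at -0.37 fell by less. The direction is given for Pecam1 alone. Leaving out Control 1 or Control 4 took the adjusted p of both ratios to 0.0714, where the smallest p the test can give is 0.0238 before adjustment.

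**Figure D4:**
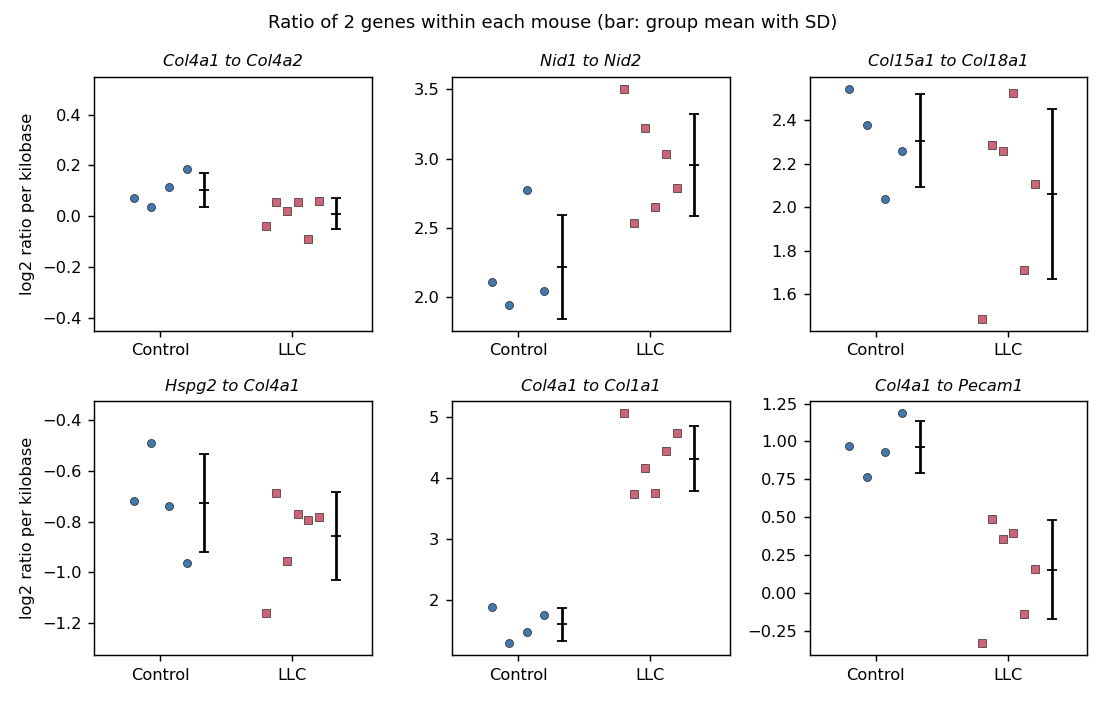
Log2 ratio of 2 genes per kilobase within each mouse, in 4 Control (blue circles) and 6 LLC samples (red squares), with the group mean and SD beside them. The groups separate fully for Col4a1 to Col1a1 (LLC higher by 2.70) and Col4a1 to Pecam1 (LLC lower by 0.81), and overlap in the other 4 panels. Col1a1 is 1 of 11 fibrillar collagens listed and Pecam1 1 of 12 endothelial markers, and ratios to the others were not computed.

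Other components of basement membranes were listed to set these genes in context. Of 34 such genes 28 were tested, 7 fell past the threshold and none rose past it, with a median log2 fold change of -0.33. Smoc2, a calcium-binding matrix protein, averaged 41.4 ± 4.39 CPM over the 4 Control mice and 16.1 ± 2.20 CPM over the 6 LLC mice (SD), and fell by 1.36 ± 0.12 (SE) on the log2 scale (edgeR, adjusted p = 0.000121). Papln (papilin), Lamc3 and Lamb1 (laminin chains gamma3 and beta1) and Hmcn2 (hemicentin-2) had log2 fold changes of -2.96, -2.12, -1.06 and -1.10. Papln and Lamc3 averaged 0.351 and 0.206 CPM in LLC, so the size of their change rests on few counts. Lamc1, the gamma1 chain found in most laminins, had a log2 fold change of -0.42 ± 0.08 (SE, edgeR, adjusted p = 0.00998), less than 1.5-fold, and is named outside the rule for named genes.

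Genes for the folding, export and crosslinking of collagen IV were listed next, not all of them enzymes or particular to collagen IV. Of 23 tested genes 3 fell past the threshold and none rose past it, with a median of -0.06. They were P3h3, a prolyl 3-hydroxylase (log2 fold change -1.24), Loxl2, a lysyl oxidase known to crosslink collagen IV (-1.62), and Pxdn, peroxidasin, which forms the sulfilimine bonds between collagen IV trimers (-0.62). Loxl2 averaged 0.390 CPM in LLC, so the size of its change rests on few counts. Among 20 tested genes for heparan sulfate chains, such as perlecan carries, 1 fell past the threshold, Sulf2, which removes sulfate groups (log2 fold change -1.05), and the median was -0.18. This share of 5.0% is near the 3.99% of all tested genes that were lower in LLC by the same rule.

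Receptors for these ligands gave 4 of 21 tested genes lower past the threshold and none higher, with a median of -0.21. Gpc3 and Gpc6 (glypicans), Sdc2 (syndecan-2) and Ddr2, a collagen receptor kinase, had log2 fold changes of -1.15, -1.02, -1.13 and -0.97. Proteases that cut basement membranes, with their inhibitors, moved both ways, with 5 lower and 3 higher past the threshold of 17 tested and a median of -0.45. Mmp2, a gelatinase that cleaves collagen IV, fell by 2.01 ± 0.11 (SE) on the log2 scale (edgeR, adjusted p = 2.29e-06), and Bmp1, Plau, Timp2 and Plat had log2 fold changes of -1.35, -1.26, -0.86 and -0.82. Mmp9, the other gelatinase, Tll1 and Adam15 had log2 fold changes of 1.97, 2.11 and 0.64 and were past the threshold, Mmp9 with overlap between the groups. Mmp9 and Tll1 averaged 0.449 ± 0.332 and 0.318 ± 0.121 CPM in Control (SD, n = 4), so the size of their change rests on few counts.

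**Figure D5:**
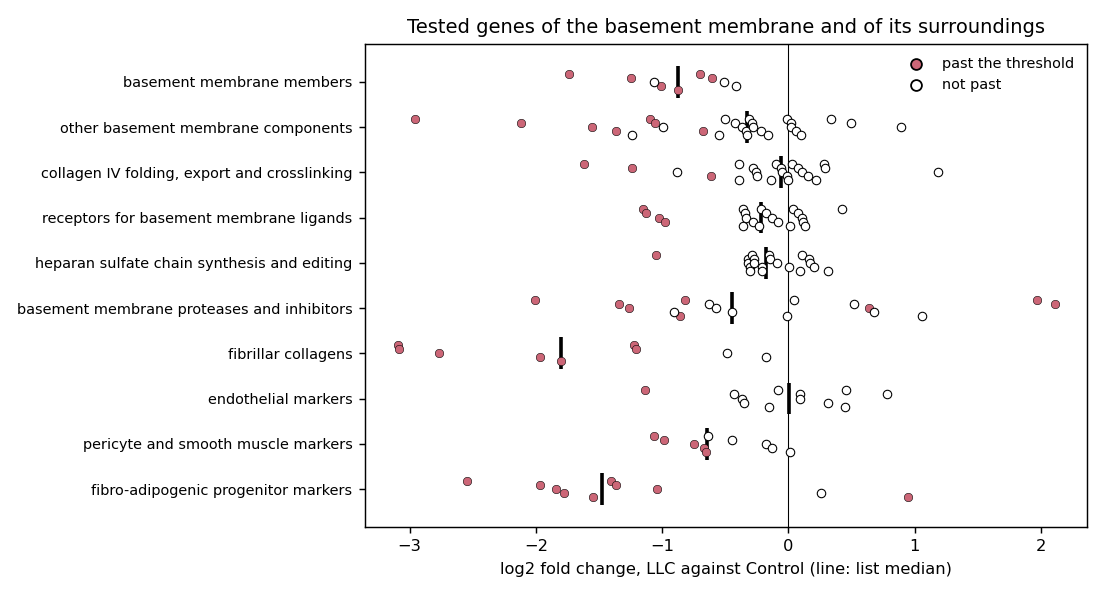
Log2 fold change of LLC against Control for each tested gene of 10 lists (points, filled where past the threshold), with the list median as a line. The median lies at -0.87 for the collagens, nidogens and perlecan, at -0.33 for other basement membrane components, at -1.80 for fibrillar collagens and at 0.00 for endothelial markers.

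Basement membrane transcripts come from several cell types, so markers of these were read from the same fit. Fibrillar collagens, made mostly by fibroblasts, were lower past the threshold for 7 of 9 tested genes, with a median of -1.80. Markers of fibro-adipogenic progenitors, the main matrix-producing cells between the fibers, were lower past the threshold for 8 of 10 and higher for 1 (Ly6a, log2 fold change 0.95), with a median of -1.48, and their summed level was 216 to 262 CPM in Control and 132 to 181 CPM in LLC. Among them Dpt, Pdgfra, Dcn, Mfap5 and Lum had log2 fold changes of -1.84, -1.40, -1.36, -1.97 and -2.54. No marker of this list was at 0 in either group. Their part in the lower levels of the basement membrane genes was not tested.

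Pericyte and smooth muscle markers, of cells that lie within the vessel's basement membrane, were lower past the threshold for 5 of 10 (Pdgfrb, Notch3, Rgs5, Kcnj8 and Cspg4), with a median of -0.64 and a summed level of 722 to 756 CPM in Control and 450 to 701 CPM in LLC. Endothelial markers overlapped between the groups in summed level, at 426 to 513 CPM in Control and 434 to 491 CPM in LLC, with a median of 0.00 over 12 genes. Of these 1 fell past the threshold, the vascular endothelial growth factor receptor Kdr, at 63.1 ± 11.5 CPM over the 4 Control mice and 28.8 ± 10.6 CPM over the 6 LLC mice (SD), with a log2 fold change of -1.13 ± 0.26 (SE, edgeR, adjusted p = 0.0227). Emcn, Cdh5 and Tie1, named after their values were seen, had log2 fold changes of -0.43, -0.37 and -0.35 (edgeR, adjusted p = 0.0194, 0.0323 and 0.0392), less than 1.5-fold. With Kdr they made up the 4 of 12 markers for which all LLC samples lay below Control, beside 9.57% of all tested genes. For 1 of the 12 all LLC samples lay above Control, and only 6 of the 12 had negative log2 fold changes. Satellite cell markers were lower past the threshold for 2 of 4 tested genes (Pax7 and Myf5) and tendon markers for 2 of 3 (Tnmd and Thbs4), with medians of -0.75 and -1.54. Elsewhere, fast myofiber markers had none of 11 past the threshold (median -0.23), adipocyte markers none of 3 (-0.82) and macrophage markers 1 of 8, Mrc1, lower (-0.41), while neutrophil markers were higher for 8 of 8 (4.23), with a summed level of 1.17 to 2.22 CPM among Control mice and 34.5 to 75.0 CPM among LLC mice. The part of these cell types in the basement membrane result was not tested.

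For 4 of the genes the most similar patterns over the 6 LLC mice were sought, by the root mean square difference of log2 CPM from the Control mean. The search covered 10275 tested genes with an average log2 CPM of at least 1. The basement membrane genes described here were left out of it, so none could be named. Nearest to Col4a1 were Gnb4, a G protein subunit, at 0.026, and Pea15a, Eif2ak3, Slc46a3 and Pdhx at 0.070 to 0.089. Nearest to Hspg2 were 9430073C21Rik, at 0.081, Slc25a23, Pxdn, Wnt11 and Rbm38, up to 0.132. Of these Pxdn is itself a basement membrane enzyme. Nearest to Nid1 were Lrp1, Glis2, Cd200, Epb41l1 and Fam49a, at 0.166 to 0.204, and nearest to Col15a1 were Adamtsl5, Cnnm4, Gpt, Arhgef40 and Gnb5, at up to 0.207. The likeness covers 6 samples only and is given as a description.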

How the data were processed

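RNA from the tibialis anterior of 4 Control and 6 LLC mice was sequenced by the authors from both ends as strand-specific total RNA, with all 10 libraries in 1 lane. The authors mapped reads to mm10 with TopHat and counted them per gene with HTSeq. The deposited values are raw counts per Ensembl gene, not normalized and not pooled, and the annotation release is not given in the sources used here. The methods name HTSeq's default settings, which count by strand, for RefSeq genes. The files list Ensembl genes instead, so the strand setting behind them was taken as unknown, which matters for genes with antisense neighbours. Of 39179 identifiers 37693 were found in GENCODE M21, the source of coordinates and exonic lengths (all exons merged).

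Genes were filtered with filterByExpr (count minimum 10), which left 12690, and scaled by TMM. The groups were tested with the quasi-likelihood model of edgeR (version 4.0.16 in R 4.3.3), in which group was the sole term. DESeq2 1.42.0, the authors' tool, and limma voom (3.58.1) were alternatives, beside other scalings, filters, a GC and length offset and each sample left out. The methods were tested on simulated data. Ratios used counts per kilobase with 0.5 added to each count. Group and replicate number came from the labels. Replicates are separate mice, and same-numbered Control and LLC mice are different animals. No pair of libraries agreed within sampling noise. The floor of 3 counts covers counting error only, since reads carried no molecular identifiers, whereas SDs and SEs include variation between mice. The basement membrane genes and all lists were chosen with earlier results of these data known. Genes of other lists were named if past the threshold, up to the 5 with the smallest adjusted p in each direction. Lamc1, Emcn, Cdh5, Tie1, Col11a2, Col24a1 and the genes that overlap a member were named after their values were seen. Small RNA of the same study was not analysed here.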

Additional observations from a re-analysis of the deposited data

Results flagged for a closer look

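In 30 sets of samples (log2 CPM of each tested gene and each ratio, within Control and within LLC) the sample at either end was checked for its gap to the next sample, as a share of the group's whole range. A gap beyond Dixon's 95% limit occurred in 1 set, against 1.5 that chance gives at 1 in 20. For Hspg2, Control 2 was the lowest Control sample with a gap ratio of 0.866, at 7.33 on the log2 CPM scale beside a Control median of 7.56. Without Control 2 the log2 fold change of Hspg2 was -0.66 (edgeR, adjusted p = 0.0773).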

How the results depend on the processing

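Of the 10 genes, 6 were lower past the threshold, and 1 to 7 were over all alternatives. The 7 with no filter on low counts and the 4 without Control 1 include Col4a4. None was higher in any alternative, and no log2 fold change or ratio changed sign. In the fits that each left out 1 sample the count ran from 2 to 6, lowest without Control 3 or Control 4 (2 each), then without LLC 6 (3). With only the samples numbered 1 to 4, an alternative added after the data were seen, it was 2, and with the replicate block on the same samples 1 (Nid2). Same-numbered samples come from different mice, and the correlation of their deviations from the group means was -0.03, 0.01, -0.08 and 0.13 for numbers 1 to 4, so the numbers do not pair the samples. Nid2 passed in all 22 alternatives and Nid1 in all but the block. Hspg2 lost its call in 14, Col15a1 in 9, Col4a3 in 7 and Col18a1 in 5 of 22, including for Col18a1 and Hspg2 the GC and length offset (log2 fold changes -0.58 and -0.41). The cause was not tested.

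For the ratio of Col4a1 to Col1a1 the log2 difference was 2.67 with medians in place of means and 2.57 with the replicate block, and 2.55 to 2.82 without 1 sample. For Col4a1 to Pecam1 it was -0.70, -0.74 and -0.88 to -0.71. Both adjusted p-values were 0.0571 with medians (exact permutation test) and 0.25 with the block, where 4 pairs cannot give less than 0.125. Without 1 sample the ratio of Col4a1 to Col4a2 differed by -0.12 to -0.065 and that of Nid1 to Nid2 by 0.63 to 0.93, and each passed in 1 such fit (without Control 2 and without Control 3, exact permutation test, adjusted p = 0.0476 for both). Depth limits Col4a4, Col4a5 and Col4a3, with under 60 counts in every sample.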
